A study of Mus musculus with 6 samples.

Results

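The Nduf genes encode most of the nuclear parts of mitochondrial complex I, with several factors that assemble it. The 46 genes described here are the protein-coding rows of the deposited count table whose symbol starts with Nduf, of 22046 protein-coding rows and 54532 rows in all. Members were chosen with earlier results of these data known, by a rule that used the symbol and no measured value. They comprise 7 core subunits, 29 accessory subunits, 8 assembly factors (Ndufaf1 to Ndufaf8), and Ndufa4 with its paralog Ndufa4l2, which carry the family's name but are not complex I subunits. Of these, 45 had enough counts for the test. Ndufa4l2 was left out, with 8, 8 and 10 counts in the libraries given vesicles and 10, 13 and 20 in those given PBS. Another 5 rows with an Nduf name, annotated as pseudogenes or a long non-coding RNA, were not counted as members.

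The data are bulk RNA-seq of total RNA from 6 samples labelled NIT-1, an insulin-producing mouse tumour line. In EV_Tm (n = 3), cells were exposed for 16 h to hucMSC-EVs, which are extracellular vesicles shed by mesenchymal stem cells of the human umbilical cord, and then for 8 h to Tm. In PBS_Tm (n = 3), cells received PBS for 16 h and then the same Tm. Tm is taken here as tunicamycin, which blocks N-linked glycosylation and causes stress of the endoplasmic reticulum. One label calls the PBS_Tm samples untreated, whereas the series' design text gives them Tm, and the design text was followed. Nothing in the labels ties the samples of a group to separate cultures, and the spread behind the p-values may be technical.

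Complex I takes electrons from NADH and passes them to ubiquinone, and pumps protons across the inner mitochondrial membrane as it does so. Its core subunits hold the flavin, the iron-sulfur clusters and the proton channels. The peripheral arm in the matrix is built from nuclear core subunits, while the core of the membrane arm is encoded by the mitochondrial genome. Accessory subunits surround this core and are needed for its stability and assembly. Assembly factors build intermediate modules and leave the finished enzyme. The roles named below rest on work in mammals, mostly human cells and the bovine enzyme.

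The libraries held 28654248 to 32550268 counts. CPM below are counts per 1000000 counts of a library, scaled by TMM factors. The median Nduf gene varied by 4.09% among EV_Tm libraries and by 6.71% among PBS_Tm libraries (coefficient of variation). The defining markers of the labelled cell type were almost absent. Of 16 beta-cell markers, 11 had at most 3 counts in every library, Ins1, Ins2, Iapp, Pdx1 and Nkx6-1 among them, and none could be tested. These markers summed to 0.283 to 1.12 CPM in EV_Tm and 0.215 to 0.465 CPM in PBS_Tm. Fibroblast markers (8 genes, 4 tested) summed to 17.7 to 20.5 CPM in EV_Tm and 22.3 to 23.6 CPM in PBS_Tm, and Lum was at or under 3 counts throughout. Of the tested fibroblast markers, Pdgfrb was 2.91-fold lower and Col1a1 1.70-fold lower, Col3a1 was 1.74-fold higher (edgeR adjusted p = 9.1e-08, 0.0071 and 0.000286) and Pdgfra did not pass. Macrophage markers (5 genes, 1 tested) summed to 4.62 to 6.49 CPM in EV_Tm and 2.74 to 4.40 CPM in PBS_Tm, nearly all from Cd68, which was called higher (edgeR adjusted p = 0.0482), with Ptprc, Adgre1 and Csf1r at 4 counts or fewer in any library. Endothelial markers (3 genes, 2 tested) summed to 29.4 to 31.0 CPM in EV_Tm and 31.2 to 33.0 CPM in PBS_Tm. Pecam1 was called lower (edgeR adjusted p = 0.0202), Cdh5 did not pass and Kdr had no count. Epithelial markers (4 genes, 1 tested) summed to 0.378 to 0.455 CPM in EV_Tm and 0.341 to 0.829 CPM in PBS_Tm. The part of other cells in the results was not tested. In bulk RNA, fewer cells of a type and less RNA per cell cannot be told apart.

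The comparison of EV_Tm with PBS_Tm asks what vesicle pretreatment changed in cells under Tm. The core subunits described here did not pass the test, many accessory subunits were modestly higher, and 3 assembly factors were lower. Of the 45 tested genes, 17 rose, 3 fell and 25 did not pass (edgeR quasi-likelihood test, adjusted p under 0.05). Over all 16844 genes tested, 47.4% were called, 22.6% higher and 24.7% lower in EV_Tm. Over the 12728 tested protein-coding genes, 24.3% were called higher and 30.8% lower, with a median log2 fold change of -0.04. The members called higher made up 37.8% of those tested. The median log2 fold change was 0.12 over the members (0.07 without PBS_Tm replicate 3) and 0.01 over all tested genes. In 23 of 45 members the CPM ranges of the groups were apart, and in 54.5% of all tested genes.

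The counts are given by class, and differences between classes were not tested. Among core subunits none fell and the median log2 fold change was 0.03. Among accessory subunits 15 of 29 rose (51.7%), none fell and the median was 0.22. Among the assembly factors 3 of 8 fell, none rose and the median was -0.12, or -0.06 without EV_Tm replicate 3 and -0.19 without EV_Tm replicate 1. The call of Ndufaf5 did not hold without EV_Tm replicate 1 or without PBS_Tm replicate 2. Of all tested genes 22.6% rose and 24.7% fell, and of tested protein-coding genes 24.3% rose and 30.8% fell. Summed CPM of accessory subunits was 1332 ± 9.04 in EV_Tm and 1157 ± 54.0 in PBS_Tm (SD, n = 3 each). Summed CPM of assembly factors was 133 ± 1.75 in EV_Tm and 161 ± 10.9 in PBS_Tm. These sums are descriptions and were not tested.

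**Figure D1:**
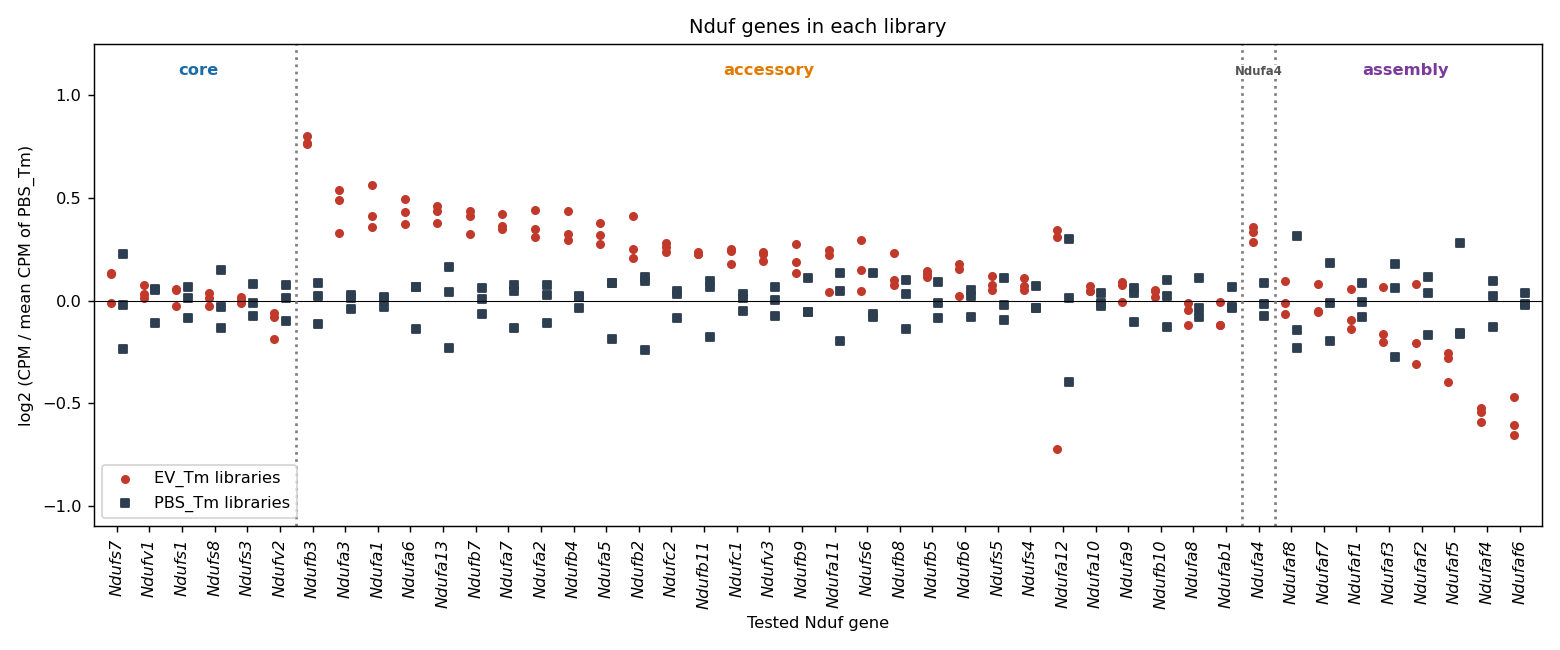
Log2 ratio of each library's CPM to the mean CPM of the PBS_Tm libraries, for 44 of the 45 tested Nduf genes ordered by class and fold change; circles are the 3 EV_Tm libraries and squares the 3 PBS_Tm libraries. Most accessory subunits on the left of their panel have all EV_Tm libraries above the PBS_Tm libraries, Ndufaf4 and Ndufaf6 have them below, and the EV_Tm libraries of Ndufa12 are far apart.

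The core members lie in the peripheral arm. Ndufs1, the large subunit that carries several iron-sulfur clusters, had 125, 124 and 118 CPM in EV_Tm and 113, 121 and 126 CPM in PBS_Tm. Its groups overlapped fully (log2 fold change 0.03 ± 0.05, SE, edgeR adjusted p = 0.692).

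Ndufv1, which binds NADH and the flavin, had 83.4, 87.3 and 84.8 CPM in EV_Tm and 86.1, 85.7 and 76.7 CPM in PBS_Tm. Its partner Ndufv2, which holds an iron-sulfur cluster, had 82.8, 75.9 and 81.7 CPM in EV_Tm and 80.7, 91.2 and 87.2 CPM in PBS_Tm. Neither passed. The log2 fold change was 0.04 ± 0.05 for Ndufv1 and -0.11 ± 0.05 for Ndufv2 (SE, adjusted p by edgeR = 0.562 and 0.107). Without PBS_Tm replicate 1, Ndufv2 was called lower (log2 fold change -0.16, edgeR adjusted p = 0.0218). Ndufs3, a scaffold of the ubiquinone-binding module, had 59.3, 59.8 and 60.4 CPM in EV_Tm and 56.7, 63.2 and 59.4 CPM in PBS_Tm, with the narrow EV_Tm range inside the PBS_Tm range and a log2 fold change of 0.00 ± 0.06 (SE, adjusted p by edgeR = 0.98).

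Ndufs7 carries the last iron-sulfur cluster before ubiquinone. It had 47.6, 52.4 and 52.7 CPM in EV_Tm and 56.1, 47.2 and 40.7 CPM in PBS_Tm. The PBS_Tm libraries of Ndufs7 spanned the EV_Tm values, and the gene did not pass (log2 fold change 0.09 ± 0.08, SE, edgeR adjusted p = 0.409). Without PBS_Tm replicate 1 it was called higher (log2 fold change 0.21, edgeR adjusted p = 0.0229). Ndufs8, which holds further clusters, had 34.9, 34.0 and 35.4 CPM in EV_Tm and 31.5, 38.3 and 33.9 CPM in PBS_Tm. Its log2 fold change was 0.01 ± 0.07 (SE, adjusted p by edgeR = 0.93). The table's own gene descriptions also call Ndufs4, Ndufs5, Ndufs6 and Ndufv3 core subunits. With that wider definition, chosen after the values were seen, the median log2 fold change was 0.08.

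The largest rise among all members was that of Ndufb3, a small subunit of the membrane arm. It had 26.0, 26.7 and 26.1 CPM in EV_Tm and 14.2, 15.5 and 16.3 CPM in PBS_Tm. The groups lay well apart, with a 1.72-fold higher level in EV_Tm and a log2 fold change of 0.78 ± 0.08 (SE, adjusted p by edgeR = 3.1e-08). Ndufa3 and Ndufa1 also belong to the membrane arm. Ndufa3 had 37.1, 38.4 and 33.2 CPM in EV_Tm and 26.9, 26.6 and 25.6 CPM in PBS_Tm (log2 fold change 0.46 ± 0.07, SE, edgeR adjusted p = 1.4e-05). Ndufa1 had 33.0, 29.7 and 28.6 CPM in EV_Tm and 22.6, 22.5 and 21.8 CPM in PBS_Tm (0.45 ± 0.08, SE, edgeR adjusted p = 3.68e-05). Neither gene's groups overlapped.

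Ndufa13, also known as GRIM-19, sits where the arms meet and had 64.5, 68.3 and 67.3 CPM in EV_Tm and 55.7, 51.1 and 42.3 CPM in PBS_Tm. Ndufb7, on the intermembrane face, had 54.0, 58.4 and 57.4 CPM in EV_Tm and 43.3, 44.9 and 41.2 CPM in PBS_Tm. In both genes the lowest EV_Tm library lay above the highest PBS_Tm library. The log2 fold change was 0.42 ± 0.07 for Ndufa13 and 0.39 ± 0.06 for Ndufb7 (SE, adjusted p by edgeR = 2.7e-05 and 7.05e-06). Among all tested genes 22.6% rose, and among tested protein-coding genes 24.3%. Of the 19 accessory subunits of the membrane arm, 10 rose, with a median log2 fold change of 0.22. Beside those 5 they were Ndufb4, Ndufb9, Ndufb11, Ndufc1 and Ndufc2, with log2 fold changes of 0.20 to 0.35. The call of Ndufb9 was lost without EV_Tm replicate 2, PBS_Tm replicate 2 or PBS_Tm replicate 3 (edgeR adjusted p = 0.119, 0.101 and 0.0653).

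Of the 9 accessory subunits of the peripheral arm, 5 rose, with a median of 0.22 as well. The share that rose was 22.6% of all tested genes and 24.3% of tested protein-coding genes. Ndufa6, a LYR-motif protein that docks the acyl carrier protein, had 50.3, 52.5 and 48.4 CPM in EV_Tm and 39.0, 39.1 and 33.9 CPM in PBS_Tm. Ndufa7 had 71.2, 74.0 and 70.5 CPM in EV_Tm and 57.3, 58.4 and 50.4 CPM in PBS_Tm. Ndufa2, a thioredoxin-like subunit, had 45.8, 44.6 and 48.9 CPM in EV_Tm and 36.7, 38.0 and 33.4 CPM in PBS_Tm. No EV_Tm library of these 3 genes fell as low as any PBS_Tm library. Their log2 fold changes were 0.43 ± 0.07, 0.38 ± 0.06 and 0.37 ± 0.07 (SE, adjusted p by edgeR = 7.93e-06, 8.61e-06 and 6.54e-05). Ndufa5 and Ndufv3 rose as well, by 0.33 and 0.22 on the log2 scale. Groups did not overlap in 18 of all 29 accessory subunits, the 15 that rose among them, and in 54.5% of all tested genes. The calls rest on the same libraries, so the lack of overlap adds no separate support.

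The other 14 accessory subunits did not pass, with log2 fold changes of -0.08 to 0.29. Ndufab1, the mitochondrial acyl carrier protein that serves both arms and has tasks outside complex I, had a log2 fold change of -0.08 ± 0.07 (SE, adjusted p by edgeR = 0.351). Ndufa8, an intermembrane space subunit, had 88.5, 86.4 and 82.2 CPM in EV_Tm and 87.1, 96.3 and 84.3 CPM in PBS_Tm (log2 fold change -0.06 ± 0.05, SE, edgeR adjusted p = 0.404). Its groups overlapped. Ndufa12 was singled out after its values were seen, for its spread. It had 39.9, 19.0 and 38.9 CPM in EV_Tm and 23.9, 38.7 and 31.7 CPM in PBS_Tm, a coefficient of variation of 36.1% in EV_Tm and 23.6% in PBS_Tm. EV_Tm replicate 2 had less than any other library, and without it Ndufa12 was called higher (log2 fold change 0.32, edgeR adjusted p = 0.0376).

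Ndufa4, first assigned to complex I and now known as a subunit of cytochrome oxidase, had 92.9, 88.4 and 91.3 CPM in EV_Tm and 71.7, 77.0 and 68.8 CPM in PBS_Tm. It rose by 0.33 ± 0.05 on the log2 scale (SE, adjusted p by edgeR = 1.17e-05), and its groups did not overlap. The subunit Ndufb1 is listed in the deposited table as Ndufb1-ps, a non-coding biotype, and so is no member. That row had 14.2, 12.9 and 15.7 CPM in EV_Tm and 11.1, 10.5 and 10.9 CPM in PBS_Tm (log2 fold change 0.40 ± 0.10, SE, edgeR adjusted p = 0.00263).

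The assembly factors that fell were Ndufaf4, Ndufaf5 and Ndufaf6, all known from early steps of assembly. Ndufaf6 had 10.4, 10.8 and 11.9 CPM in EV_Tm and 16.3, 16.9 and 16.2 CPM in PBS_Tm. Ndufaf4, which works as a pair with Ndufaf3, had 34.4, 33.9 and 32.8 CPM in EV_Tm and 45.2, 50.3 and 52.9 CPM in PBS_Tm. For both genes the highest EV_Tm library lay well under the lowest PBS_Tm library. Ndufaf6 was 1.49-fold lower and Ndufaf4 1.47-fold lower, with log2 fold changes of -0.58 ± 0.10 and -0.55 ± 0.07 (SE, adjusted p by edgeR = 2.54e-05 and 2.32e-07). Ndufaf5, which hydroxylates an arginine of Ndufs7, had 12.9, 14.1 and 14.3 CPM in EV_Tm and 15.3, 20.7 and 15.2 CPM in PBS_Tm. Its groups did not overlap, but they lay close, and PBS_Tm replicate 2 was much higher than the rest. The fall of Ndufaf5 by 0.31 ± 0.11 on the log2 scale (SE, adjusted p by edgeR = 0.0246) was lost without PBS_Tm replicate 2 (log2 fold change -0.16, edgeR adjusted p = 0.253) and without EV_Tm replicate 1 (-0.27, edgeR adjusted p = 0.0897).

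The other 5 assembly factors did not pass, and their groups overlapped. Ndufaf1, which works with Ecsit and Acad9 on the membrane arm, had 18.2, 15.9 and 16.4 CPM in EV_Tm and 16.6, 17.4 and 18.6 CPM in PBS_Tm. Ndufaf2, a paralog of Ndufa12 that acts late in assembly, had 17.99, 14.8 and 13.7 CPM in EV_Tm and 15.2, 18.4 and 17.5 CPM in PBS_Tm. Ndufaf3 had 8.54, 10.3 and 8.79 CPM in EV_Tm and 10.3, 11.1 and 8.12 CPM in PBS_Tm. Their log2 fold changes were -0.06 ± 0.09, -0.14 ± 0.11 and -0.09 ± 0.13 (SE, adjusted p by edgeR = 0.644, 0.31 and 0.579). Ndufaf7, which methylates an arginine of a core subunit, had 27.9, 27.8 and 30.6 CPM in EV_Tm and 25.2, 32.8 and 28.6 CPM in PBS_Tm. Ndufaf8, the partner of Ndufaf5, had 4.79, 4.28 and 4.44 CPM in EV_Tm and 5.56, 3.81 and 4.04 CPM in PBS_Tm. Both log2 fold changes were near 0, at -0.01 ± 0.09 and 0.01 ± 0.18 (SE, adjusted p by edgeR = 0.962 and 0.975).

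Promoters are shown for Ndufb3, which had the largest rise, for Ndufa6, which also rose, and for Ndufaf4 and Ndufaf5, which fell, so that genes that moved in opposite directions can be compared. RefSeq promoter sequences (GRCm38.p6, 250 bases before to 50 bases after the start of the gene) were matched by symbol for 40 of the 46 genes. Sequences run 5′ to 3′ on the strand of the gene, and capitals mark NRF1 motif matches on either strand.
Ndufb3: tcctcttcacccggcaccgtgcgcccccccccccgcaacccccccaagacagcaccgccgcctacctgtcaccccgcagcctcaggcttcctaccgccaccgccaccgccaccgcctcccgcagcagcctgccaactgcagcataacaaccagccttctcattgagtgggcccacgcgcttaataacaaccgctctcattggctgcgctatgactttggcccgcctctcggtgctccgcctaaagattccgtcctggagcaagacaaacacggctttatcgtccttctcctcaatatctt
Ndufa6: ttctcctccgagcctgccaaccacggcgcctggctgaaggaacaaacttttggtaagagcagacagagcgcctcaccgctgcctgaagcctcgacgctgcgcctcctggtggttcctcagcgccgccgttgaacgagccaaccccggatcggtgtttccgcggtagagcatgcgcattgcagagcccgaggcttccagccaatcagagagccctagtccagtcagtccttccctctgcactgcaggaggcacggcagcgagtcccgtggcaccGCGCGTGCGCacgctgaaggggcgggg
Ndufaf4: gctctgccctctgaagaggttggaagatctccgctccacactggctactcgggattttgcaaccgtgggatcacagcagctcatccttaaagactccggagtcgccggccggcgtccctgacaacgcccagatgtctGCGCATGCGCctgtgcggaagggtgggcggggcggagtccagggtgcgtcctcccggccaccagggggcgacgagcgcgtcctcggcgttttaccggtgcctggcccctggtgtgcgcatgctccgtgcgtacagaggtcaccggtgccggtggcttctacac
Ndufaf5: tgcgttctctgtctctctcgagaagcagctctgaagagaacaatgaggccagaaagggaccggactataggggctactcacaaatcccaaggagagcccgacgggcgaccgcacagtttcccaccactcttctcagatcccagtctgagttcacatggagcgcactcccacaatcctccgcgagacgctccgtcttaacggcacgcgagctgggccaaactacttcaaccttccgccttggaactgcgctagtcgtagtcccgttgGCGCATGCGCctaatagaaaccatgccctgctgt
They lie at chr1:58586147-58586446 (plus strand), chr15:82354242-82354541 (minus strand), chr4:24897833-24898132 (plus strand) and chr2:140170396-140170695 (plus strand). The motifs, searched on both strands, were GCGCA, any base and GCGC for NRF1, CCGGAAG for ETS factors, TCAAGGTCA for ERR receptors, AAGATGGCG for YY1, CCAAT and CCACG with a gap of 9 bases for the ER stress element, and TGATGNAA for CHOP-ATF sites. Matches of different motifs did not overlap in these promoters. NRF1 is a regulator of respiratory chain genes. Its letters were found in 9 of 40 member promoters (22.5%), against 4.78% of 27025 promoters. They were in the promoters of both Ndufaf4 and Ndufaf5, as GCGCATGCGC, which reads alike on both strands, and in 3 of 14 promoters of genes that rose, Ndufa5, Ndufa6 and Ndufb4. They were also in 4 of 24 promoters of members that did not pass (16.7%), and the promoter of Ndufaf6 was not analysed here. The YY1 letters were in 6 of 40 member promoters (15%), against 1.49% of all promoters, and the ETS letters in 6 of 40 (15%), against 9.12%. The promoter of Ndufb3 held none of these letters. No member promoter held the ERR, ER stress element or CHOP-ATF letters, which were in 0.407%, 0.130% and 4.06% of all promoters. The 27025 promoters were neither limited to genes tested here nor matched for base composition, so the shares are not like for like. A match is a run of letters and not a binding site.

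Levels between genes were compared per kb of the table's gene length. Ndufa8 and Ndufc2 were among the highest, at 99.5 and 85.7 CPM per kb in EV_Tm and 103.6 and 71.6 CPM per kb in PBS_Tm. Ndufc2, a subunit of the membrane arm, had 65.5, 64.7 and 63.7 CPM in EV_Tm and 55.2, 55.9 and 51.0 CPM in PBS_Tm, without overlap. The median level of core subunits was 33.8 CPM per kb in EV_Tm and 32.9 in PBS_Tm. That of assembly factors was 7.95 CPM per kb in EV_Tm and 8.89 in PBS_Tm, and every assembly factor lay below every core subunit. The lowest level was that of Ndufb2, at 0.904 CPM per kb in EV_Tm and 0.739 in PBS_Tm. The ratio of the highest to the lowest member was 126 ± 22.1 (SD, n = 6 libraries). Gene length here covers the exons of all annotated transcripts, and per kb of the principal transcript the order was led by Ndufa4 and Ndufa7.

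**Figure D2:**
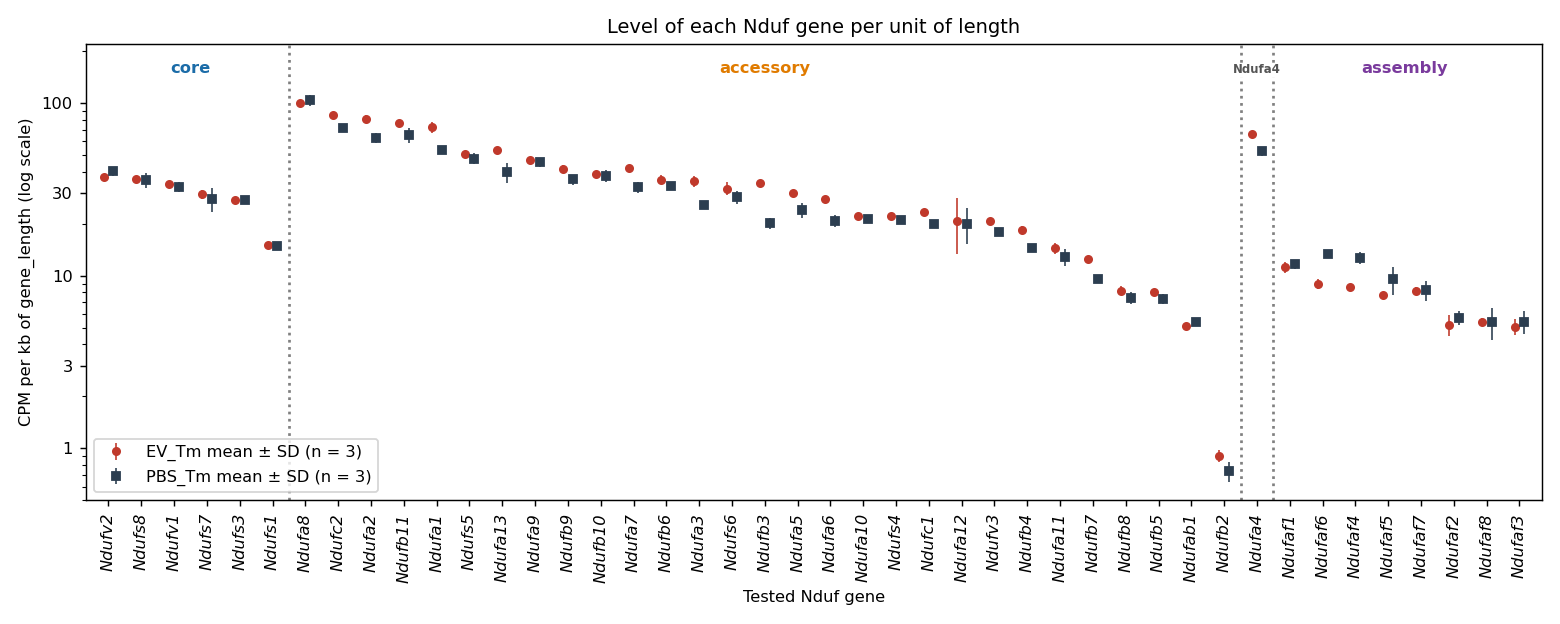
Mean ± SD (n = 3) CPM per kb of gene length, on a log scale, for 44 of the 45 tested Nduf genes ordered by class and level; circles are EV_Tm and squares PBS_Tm. The core subunits shown lie between 14.8 and 40.2 CPM per kb, above all assembly factors, whose highest value is 13.3.

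Many accessory subunits are short, and among all members shorter genes tended to have higher fold changes. Across the 45 tested members, Spearman's rho between log2 fold change and log2 gene length was -0.322 (Pearson's r -0.300), and across 12728 protein-coding genes it was -0.106 (r -0.096). Within classes, rho was -0.264 for the 29 accessory subunits, 0.250 for the 7 core subunits and -0.190 for the 8 assembly factors. These are correlations across genes of the same libraries, which are not independent replicates. Against the length of the principal transcript, rho was -0.555 over the members and -0.103 over 12690 protein-coding genes. Against the share of G and C bases in that transcript, rho was 0.203 over the members and 0.157 over the 12690 genes. The median gene length was 1251 bases for accessory subunits, 2178 for core subunits and 1802 for assembly factors, against 4336 for all tested protein-coding genes. Tested protein-coding genes were split into 5 equal classes by length. In the class of the shortest (2548 genes up to 2420 bases), the median log2 fold change was 0.06, and 26.2% were called higher. The 32 members in that length range had a median of 0.16, with 15 higher and 2 lower. In the class of the longest genes the median was -0.08.

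**Figure D3:**
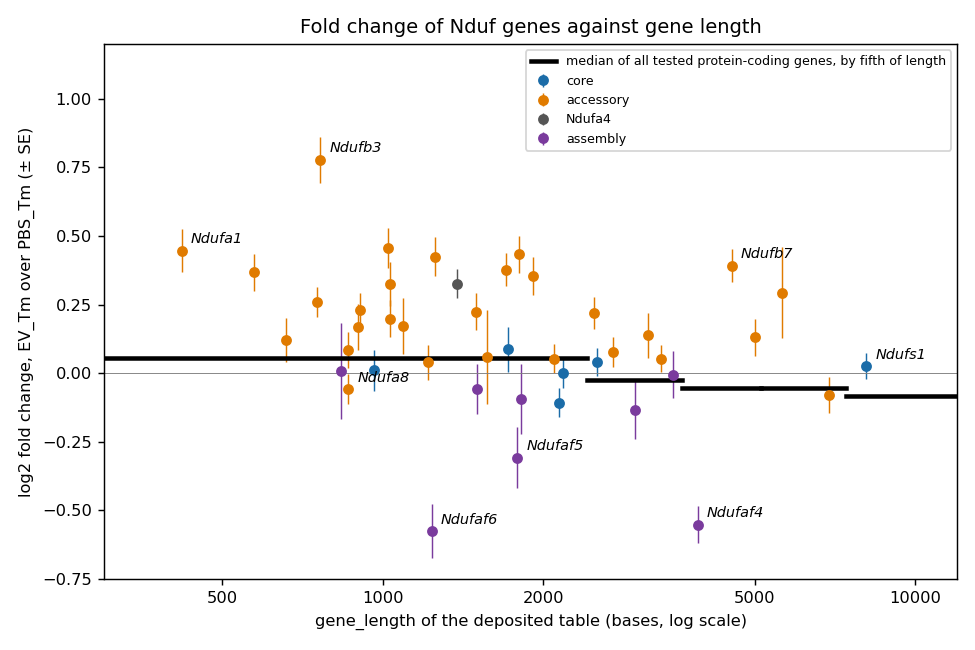
Log2 fold change (EV_Tm over PBS_Tm, ± SE) of 44 of the 45 tested Nduf genes against gene length on a log scale, coloured by class; black bars are medians of all tested protein-coding genes in 5 classes of length, 0.06 in the shortest and -0.08 in the longest. The fall of Ndufaf4 and Ndufaf6 and the rise of Ndufb3 lie far from the bars.

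The length trend differed between libraries of 1 group as well as between groups. Relative to the mean of all libraries, genes of 1000 bases were shifted by 0.07, 0.07 and 0.08 log2 units in EV_Tm replicates 1 to 3, and by -0.05, -0.02 and -0.10 in PBS_Tm replicates 1 to 3. Summed CPM of the accessory subunits was 1341, 1332 and 1323 in EV_Tm and 1158, 1211 and 1103 in PBS_Tm. The PBS_Tm libraries stood in the same order in both measures, and the EV_Tm libraries in the opposite order.

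When each library's length trend was removed by an offset in the edgeR fit, 14 members rose and 4 fell. At 1000 bases the trend was positive in every EV_Tm library and negative in every PBS_Tm library. The offset therefore also removes any difference between the groups that goes with gene length. Over all genes 23.9% were then called higher and 23.1% lower. Under that offset 12 accessory subunits rose, with a median of 0.15, and the core median was 0.05. Ndufa1, Ndufb9, Ndufb11 and Ndufc2 no longer passed, Ndufb5 was called higher and Ndufa8 lower (log2 fold change -0.21 ± 0.05, SE, edgeR adjusted p = 0.000789). Of the 16 accessory subunits under 1500 bases, a limit chosen after the values were seen, 10 rose without the offset and 6 with it, and their median was 0.23 without and 0.08 with it. Of the 13 longer ones, 5 rose without the offset and 6 with it, with medians of 0.14 and 0.17. Ndufb3 kept a log2 fold change of 0.60 ± 0.08 (SE, adjusted p by edgeR = 1.44e-06), and Ndufaf4, Ndufaf5 and Ndufaf6 were still called lower.

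With an offset on principal transcript length, added after the data were seen, 11 members rose and 5 fell, where 24.0% of all genes were called higher and 23.2% lower. Among the genes called higher in all 3 fits were Ndufa2, Ndufa3, Ndufa5, Ndufa6, Ndufa7, Ndufa13, Ndufb3, Ndufb4, Ndufb7 and Ndufv3. For Ndufa2 the gene length offset left an edgeR adjusted p of 0.0496, or 0.0753 with a replicate block added. With the principal length offset Ndufa4 and Ndufc1 no longer passed (log2 fold change 0.11 and 0.09, edgeR adjusted p = 0.0645 and 0.289), and Ndufaf2 was called lower (-0.30, edgeR adjusted p = 0.02).

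**Figure D4:**
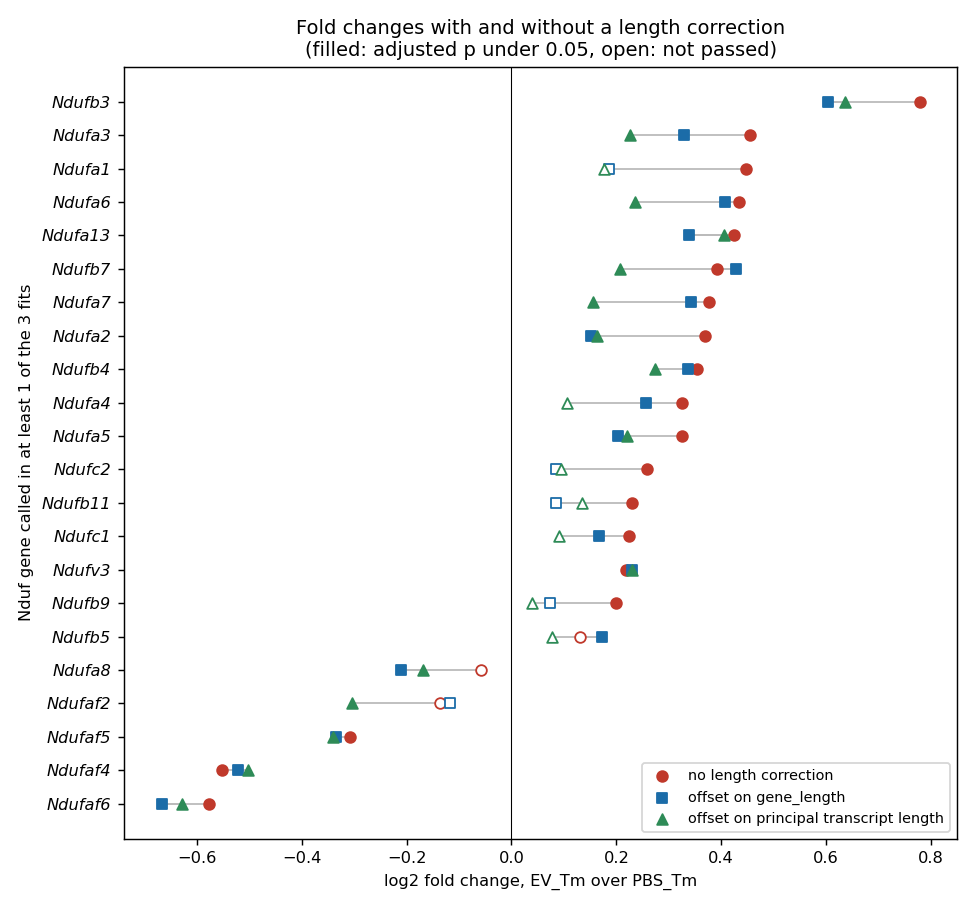
Log2 fold change (EV_Tm over PBS_Tm) of Nduf genes called in at least 1 of 3 edgeR fits, without a length correction (circles), with an offset on gene length (squares) and with an offset on principal transcript length (triangles); filled symbols passed and open symbols did not. Ndufb3 stays above 0.60 and Ndufaf4 and Ndufaf6 below -0.50 in all 3 fits, while Ndufa1, Ndufb9, Ndufb11 and Ndufc2 pass without a correction only.

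No source used here gives the strand setting of the counting, and reads from overlapping genes cannot be told apart. Exons of 18 tested members overlap another gene. Of these 6 rose (33.3%) and none fell, and of the 27 members without such an overlap 11 rose (40.7%) and 3 fell, where 22.6% of all tested genes rose. Where the opposite-strand gene had more counts than the member, as with Vmac for Ndufa11, Impdh2 for Ndufaf3, Rbm10 for Ndufb11, Braf for Ndufb2, Eef1b2 for Ndufs1 and Mrpl36 for Ndufs6, the member's values are uncertain. Ndufa2, Ndufa3, Ndufa13 and Ndufb9, which rose, share exon bases with genes that had fewer counts than they did. Ndufa11, Ndufab1, Ndufb4 and Ndufs6 have processed pseudogenes in the table, which can take part of their reads.

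Other genes of complex I were read from the same fit. Of the 7 mitochondrially encoded subunits, which form the proton-pumping core, 4 rose and 3 did not pass, where 22.6% of all tested genes rose. Of those that did not pass, mt-Nd3 and mt-Nd4l had low counts. These are the shortest of the 7 genes, at 348 and 297 bases, and their CPM were not read as transcript levels relative to the other genes. They were at 7.46 and 6.56 CPM in EV_Tm and at 6.52 and 5.06 CPM in PBS_Tm. The log2 fold change of mt-Nd4l was 0.37 ± 0.16 (SE, adjusted p by edgeR = 0.0536). mt-Nd1, mt-Nd2 and mt-Nd5 rose by 0.41, 0.37 and 0.32 on the log2 scale (edgeR adjusted p = 2.44e-11, 7.45e-09 and 1.52e-08), and mt-Nd4 rose as well. With the gene length offset, 4 were still called higher and mt-Nd6 was called lower. mt-Nd1 was at 3575 ± 26.7 CPM in EV_Tm and 2694 ± 66 CPM in PBS_Tm (SD, n = 3 each).

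Of 13 assembly factors without the Nduf name, 12 were tested, of which 5 fell, 3 rose and 4 did not pass. Over all tested genes 24.7% fell and 22.6% rose, and over tested protein-coding genes 30.8% fell and 24.3% rose. The median log2 difference of these factors was -0.15. Tmem126a, known in human cells to assist newly made ND4, was at 28.8 ± 2.13 CPM in EV_Tm and 47.0 ± 6.75 CPM in PBS_Tm (SD, n = 3 each). Its log2 fold change was -0.71 ± 0.09 (SE, adjusted p by edgeR = 1.84e-07). Tmem70, also an assembly factor of ATP synthase, was at 85.5 ± 0.333 CPM in EV_Tm and 110.1 ± 3.29 CPM in PBS_Tm. Ecsit, a partner of Ndufaf1, was at 20.9 ± 1.72 CPM in EV_Tm and 30.1 ± 2.68 CPM in PBS_Tm. Tmem70 and Ecsit fell by 0.36 and 0.52 on the log2 scale (edgeR adjusted p = 4.54e-07 and 1.4e-05). Timmdc1 and Foxred1 fell too, though Foxred1 did not pass with the gene length offset (edgeR adjusted p = 0.109), while Dmac1, Dmac2 and Tmem186 rose by 0.53, 0.38 and 0.24 on the log2 scale. Timmdc1, Foxred1, Dmac1, Dmac2, Tmem186, mt-Nd3, mt-Nd4, mt-Nd4l and mt-Nd6 were named after their values were seen.

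**Figure D5:**
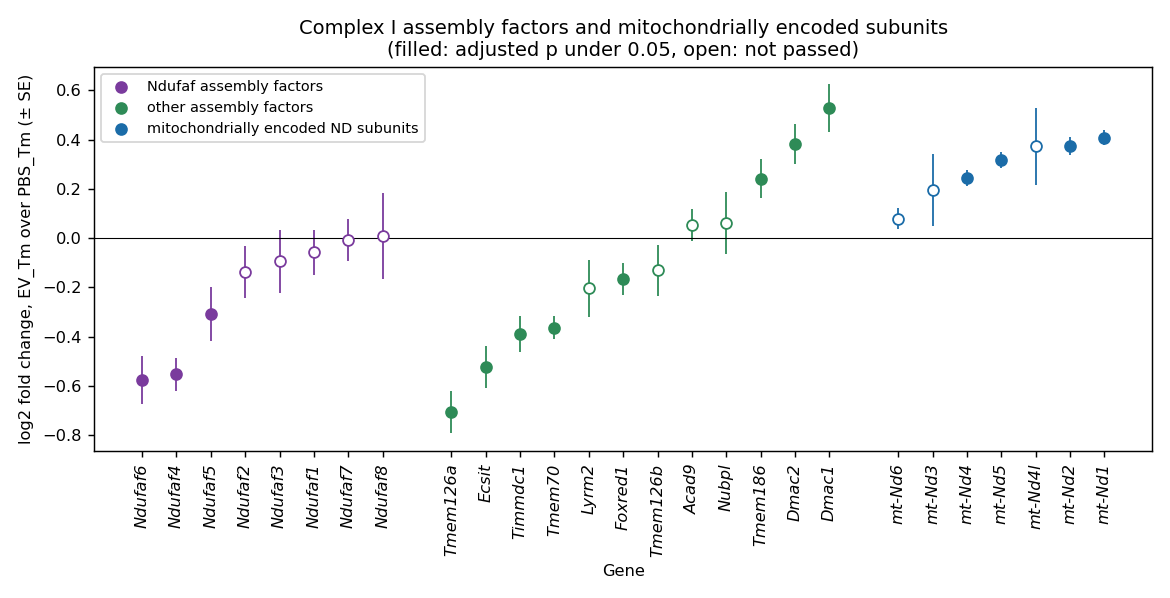
Log2 fold change (EV_Tm over PBS_Tm, ± SE) of the 8 Ndufaf genes, 12 other complex I assembly factors and 7 mitochondrially encoded subunits; filled symbols passed the edgeR test and open symbols did not. No Ndufaf gene passed upward, other assembly factors range from -0.71 to 0.53, and the mitochondrially encoded subunits from 0.08 to 0.41.

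Of 19 iron-sulfur cluster genes, 6 rose and 5 fell, while 8 did not pass, where 22.6% of all tested genes rose and 24.7% fell, and the median log2 fold change was 0.09. Hspa9, the mitochondrial chaperone of cluster transfer, was at 865 ± 34.7 CPM in EV_Tm and 1468 ± 37.8 CPM in PBS_Tm (SD, n = 3 each), a log2 fold change of -0.76 ± 0.04 (SE, adjusted p by edgeR = 6.37e-15). Nfu1, a late cluster carrier, fell by 0.73, and Fdxr, the ferredoxin reductase, rose by 0.43 on the log2 scale (edgeR adjusted p = 8.02e-12 and 2.56e-09). Of 4 flavin genes Slc25a32, the mitochondrial carrier for flavin and folate, fell by 0.44 on the log2 scale (edgeR adjusted p = 6.49e-05), and the other 3 did not pass. Of the 3 import genes for disulfide-bonded subunits, Gfer fell by 0.51, Aifm1 rose by 0.23 and Chchd4 did not pass (-0.11 ± 0.06, SE, edgeR adjusted p = 0.169).

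Of 13 tested regulators of respiratory genes, 8 fell, Polrmt rose and 4 did not pass (median log2 fold change -0.26). Over all tested genes 24.7% fell and 22.6% rose, and over tested protein-coding genes 30.8% fell and 24.3% rose. Gabpb1 and Gabpa, which encode parts of the ETS factor NRF2, fell by 0.59 and 0.32 on the log2 scale (edgeR adjusted p = 3.65e-08 and 4.73e-05). Polrmt, the mitochondrial RNA polymerase, rose by 0.41 (edgeR adjusted p = 4.77e-06). Among 14 tested genes of other enzymes that reduce ubiquinone, 6 rose, 7 did not pass and 1 fell (median 0.08). The same shares of all tested genes apply here. The gene that fell was Sdhaf3, named after its value was seen, by 0.62 on the log2 scale. Sdhd and Sdhc, the membrane anchors of complex II, rose by 0.90 and 0.53, and Etfdh by 0.38 on the log2 scale (edgeR adjusted p = 4.04e-13, 8.8e-09 and 8.85e-06).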

How the data were processed

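Deposited counts, per the labels, are from HISAT2 2.2.1 alignments, with featureCounts 2.0.6 named in the submitters' processing notes. They are raw counts per gene, 1 column per sample. The deposited table's other values are gene start, end and length in bases. The notes name mm39, but start and end of 98.33% of 54409 shared gene IDs, and of 42 of the 46 members, equal those of GENCODE M21 (GRCm38), and gene length equals the union of its exons for 98.01%. From the counts, edgeR 4.0.16 in R 4.3.3 tested EV_Tm against PBS_Tm over 16844 genes kept by filterByExpr, with TMM factors, a two-sided quasi-likelihood test and adjustment by Benjamini-Hochberg over all of them. The common coefficient of variation was 6.05%. Each SE is the absolute log2 fold change over the square root of F.

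The length offset was a lowess curve (span 0.3) of each library's log2 CPM deviation (prior count 2) on log2 length, using genes whose average log2 CPM reached 1. Both fits were run on simulated data, in which few genes changed and the length trend, where present, was steeper than here. That simulation does not show how the fits behave when 47.4% of genes are called. Mean chi-square per gene was 3.68 to 7.68 within groups and 96.4 to 109.9 between groups, and each library was counted as 1 sample.

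The core genes described are Ndufs1, Ndufs3, Ndufs7, Ndufs8, Ndufv1 and Ndufv2. The results of 1 tested member are not reported here, though counts over the family include it. By a rule on named genes, values per library are given for core genes, all Ndufaf genes, Ndufa4, the 8 accessory genes with the largest change that passed and the 3 highest per length, and context genes are the 3 with the smallest p per list. Members and lists were chosen with earlier results of these data known. Promoter motifs used the first RefSeq start listed per gene. Alternatives were DESeq2 1.42.0 and limma-voom (limma 3.58.1), other scalings, filters, lengths and a replicate block.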

Additional observations from a re-analysis of the deposited data

How the results depend on the processing

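With DESeq2's size factors, DESeq2's test, limma-voom, no filter or a filter of 1 CPM in 3 libraries, all 45 member calls or non-calls were as in the report. With an offset on principal transcript length, 11 members were called higher and 5 lower, and the median log2 fold change was 0.0545 over all members, 0.0935 over accessory subunits and -0.22 over assembly factors. Without the members under 10 CPM, the assembly factor median was -0.22. Spearman's rho of the members' fold change with gene length was 0.090 after the gene length offset. That offset was fitted on gene length itself, so a weaker dependence on gene length follows largely from how it was made. With principal transcript length it was -0.555 without an offset and -0.261 after the gene length offset. The ratio of the highest to the lowest member was 46.7 in plain CPM and 80.8 per kb of principal transcript. The core median was -0.02 without PBS_Tm replicate 1, -0.01 without PBS_Tm replicate 3 and -0.02 with the principal length offset, so its sign depended on these settings. Library size alone or protein-coding rows alone added Ndufb5 and Ndufs6 to the genes called higher, 19 in each case.

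Leaving out each library in turn gave 16 to 19 members higher and 2 to 4 lower. The median log2 fold change was then 0.0681 to 0.142 over all members and -0.191 to -0.0586 over assembly factors. Ndufb9 did not pass without EV_Tm replicate 2, PBS_Tm replicate 2 or PBS_Tm replicate 3, Ndufb5 was called higher without PBS_Tm replicate 1 (adjusted p = 0.0469) and Ndufs6 without PBS_Tm replicate 2 (adjusted p = 0.0446). Of the 20 called members, 12 were called in every setting run.

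The groups share replicate numbers, but same-numbered samples did not deviate together (correlations of -0.043, 0.016 and -0.014), so the numbers were not taken as pairs. The replicate block gave 7737 called genes, against 7976, and the same 17 and 3 members. With the gene length offset the block gave 12 higher and 4 lower, without Ndufa2 and Ndufc1 (adjusted p = 0.0753 and 0.0735). Members of low count have wide errors at this depth, with an SE of 0.18 on the log2 scale for Ndufaf8.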
